A study of Homo sapiens with 6 samples.

Results

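The NEK (NIMA-related) kinases are a family of serine/threonine kinases of the centrosome, the mitotic spindle and the primary cilium, and they were followed here in SW-1990 cells with and without knockdown of PRLR, the prolactin receptor. The list held 10 human genes: NEK1, NEK2, NEK3, NEK4, NEK5, NEK6, NEK7, NEK8, NEK9 and NEK11. Every probe set with 1 of these symbols as its only annotated gene was taken, which gave 22 of the 41091 probe sets with 1 gene symbol and 9 of the 19775 genes of the array. NEK1, a kinase of the primary cilium and the DNA damage response, had 0 such probe sets and was not analysed here. SW-1990 is an established human pancreatic adenocarcinoma cell line taken from a metastasis in the spleen. The sh-PRLR cells carried a lentiviral short hairpin RNA (shRNA) directed at PRLR, and the sh-Ctrl cells carried a scrambled shRNA. Both had been kept in 1 μg/ml of puromycin for more than 7 days, so lentiviral infection and drug selection are common to all arrays. Each group had 3 Affymetrix U133 Plus 2.0 arrays, given as biological replicates. By the RefSeq gene table, NEK2 and NEK7 lie on chromosome 1, NEK4 and NEK11 on 3, NEK6 on 9, NEK3 and NEK5 on 13, NEK9 on 14 and NEK8 on 17. With a single sh-PRLR group, an effect of the hairpin itself and one of lower PRLR cannot be told apart.

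NEK2 separates the centrosomes at mitotic entry by phosphorylating the proteins that link them. NEK9, switched on by the kinase PLK1, in turn activates NEK6 and NEK7, which act on the spindle motor KIF11. NEK8 works in the inversin compartment of the primary cilium, NEK11 in the DNA damage checkpoint, and NEK3 was found in breast cancer cells to join the activated prolactin receptor and its partner VAV2.

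A level below is the log2 expression value of a probe set. Every difference is the sh-PRLR mean minus the sh-Ctrl mean on that scale, and ± gives the SD (n = 3 in each group). Levels of different probe sets cannot be set against each other, so the members have no order of abundance here. For a gene with several probe sets, the brightest (by mean over all arrays) stands for the gene. A gene or probe set is said to have risen or fallen only where limma with intensity-dependent variance gave an adjusted p under 0.05. The adjusted p of limma's default settings is called the default adjusted p.

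PRLR itself was read by 7 probe sets, all lower in mean in sh-PRLR. Their average was 3.94, 4.38 and 4.19 on the sh-PRLR arrays and 5.23, 5.03 and 4.79 on the sh-Ctrl arrays, which differ by -0.85. The two-sided exact permutation p was 0.1, and no arrangement of these arrays can give a smaller one. On this average the groups did not overlap. Singly, 0 of the 7 probe sets passed limma, with 2 at an unadjusted p under 0.05, and all 7 had means below 7.23, the median level of all genes. The 5 epithelial markers KRT8, KRT18, KRT19, EPCAM and CDH1 had means between 12.65 and 15.29. The 8 measured markers of fibroblasts, leukocytes and endothelium had means between 1.82 and 7.89, with COL1A1 (7.89) and PECAM1 (7.27) above the median level. Being levels of different probe sets, these means give no order of abundance. CDH1 alone among all the markers passed, falling by 0.17 (limma adjusted p = 0.0284, default adjusted p = 0.293). Averaged over their markers, leukocytes ranged from 4.46 to 5.83 on the sh-PRLR arrays and from 3.85 to 5.14 on the sh-Ctrl arrays. Fibroblasts ranged from 4.66 to 5.47 in sh-PRLR and from 5.14 to 5.62 in sh-Ctrl, and endothelium from 3.69 to 5.17 in sh-PRLR and from 3.90 to 4.73 in sh-Ctrl. The control probe sets for small-subunit ribosomal RNA averaged between 13.37 and 13.69 on the sh-PRLR arrays and between 12.78 and 13.39 on the sh-Ctrl arrays. The 3′ minus 5′ signal of GAPDH, a sign of RNA integrity, ran from 0.09 to 0.20 in sh-PRLR and from 0.19 to 0.28 in sh-Ctrl. That of ACTB was larger, from 2.99 to 3.11 in sh-PRLR and from 3.05 to 3.36 in sh-Ctrl. The part of these differences in the results was not tested. In RNA from whole cultures, fewer cells of a kind and less RNA per cell cannot be told apart.

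Across the family the changes were small and went both ways. Of the 9 genes 5 were higher in mean in sh-PRLR and 4 lower, with a median change of 0.02 on the log2 scale against -0.0013 over all genes. By limma with intensity-dependent variance 0 of the 9 genes passed, where 7.66% of all genes and 14.6% of those above the median gene level did, and 4 of the 9 had an unadjusted p under 0.05, against 20.3% of all genes. With default settings limma also called 0 of the 9, against 0.0202% of all genes, and 4 had an unadjusted p under 0.05, against 16.2%. In 4 of the 9 genes the groups did not overlap, NEK2 and NEK3 being higher and NEK6 and NEK8 lower, where 25.8% of all genes had no overlap (11.7% higher, 14.1% lower). The share was 38.9% among genes whose mean lay above the median gene level, as did 8 of the 9 NEK genes, so 4 of 9 is close to that background. The median size of the change, without sign, was 0.23 for the NEK genes, 0.24 for all genes and 0.14 for genes above the median level. Of all genes called, 43.6% were higher. When each array was centred on its median the share was 28.4% (0.723% of all genes called higher and 1.83% lower), and NEK2, NEK3, NEK6 and NEK8 kept the directions given here.

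**Figure D1:**
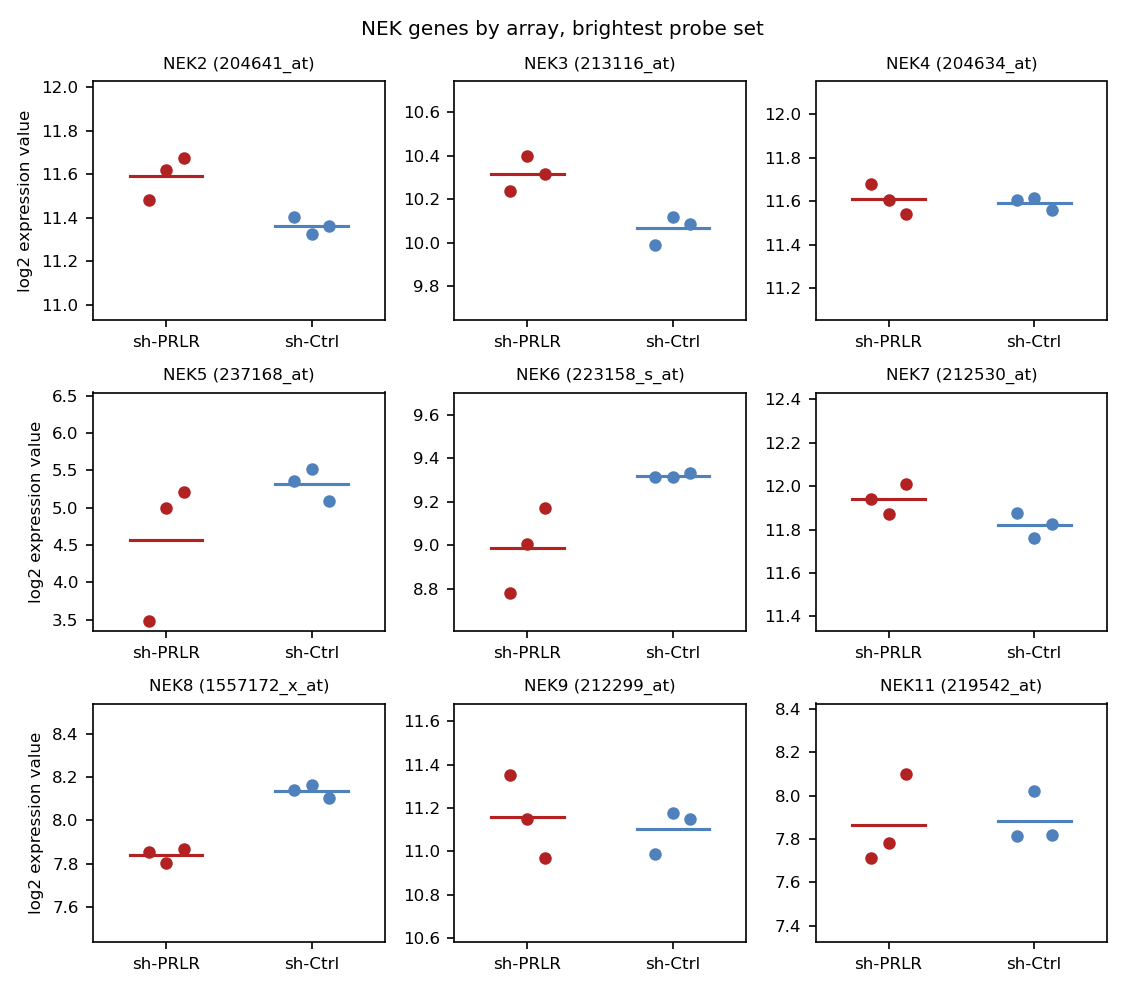
Log2 expression value (vertical axis) of the brightest probe set of each of the 9 NEK genes on the 3 sh-PRLR arrays (dark red, left) and the 3 sh-Ctrl arrays (blue, right), with the group means as lines. Axes are cut to the range of each gene and span the same number of log2 units except for NEK5, whose axis is wider. NEK2 and NEK3 lie higher in sh-PRLR and NEK6 and NEK8 lower, without overlap.

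At the level of probe sets, 12 of the 22 were higher in mean in sh-PRLR and 10 lower. In 11 the groups did not overlap, 8 of them higher and 3 lower, against 22.6% of all probe sets with 1 symbol (11% higher, 11.6% lower). Of the 12 above the median gene level 6 had no overlap, against 36.4% of all probe sets above it. Limma with intensity-dependent variance called 1 of the 22, a second NEK2 probe set that was higher, against 4.67% of all probe sets (2.17% higher, 2.5% lower) and 10.6% of those above the median gene level. Default settings called 0 of 22 and 0 of 41091. An unadjusted p under 0.05 was reached by 7 of the 22 with intensity-dependent variance, against 17% of all, and by 9 with default settings, against 12.7%. Among the 10 probe sets below the median gene level, the dimmest had the widest errors. Not all 10 exceeded those above it, as NEK6 223159_s_at below it had an SE of 0.19 and NEK11 1555082_a_at above it 0.20. The 6 with a mean below 5 had SEs of 0.59 to 1.02. For the brightest probe sets of the 8 NEK genes above the median level the SEs lay between 0.06 and 0.16.

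**Figure D2:**
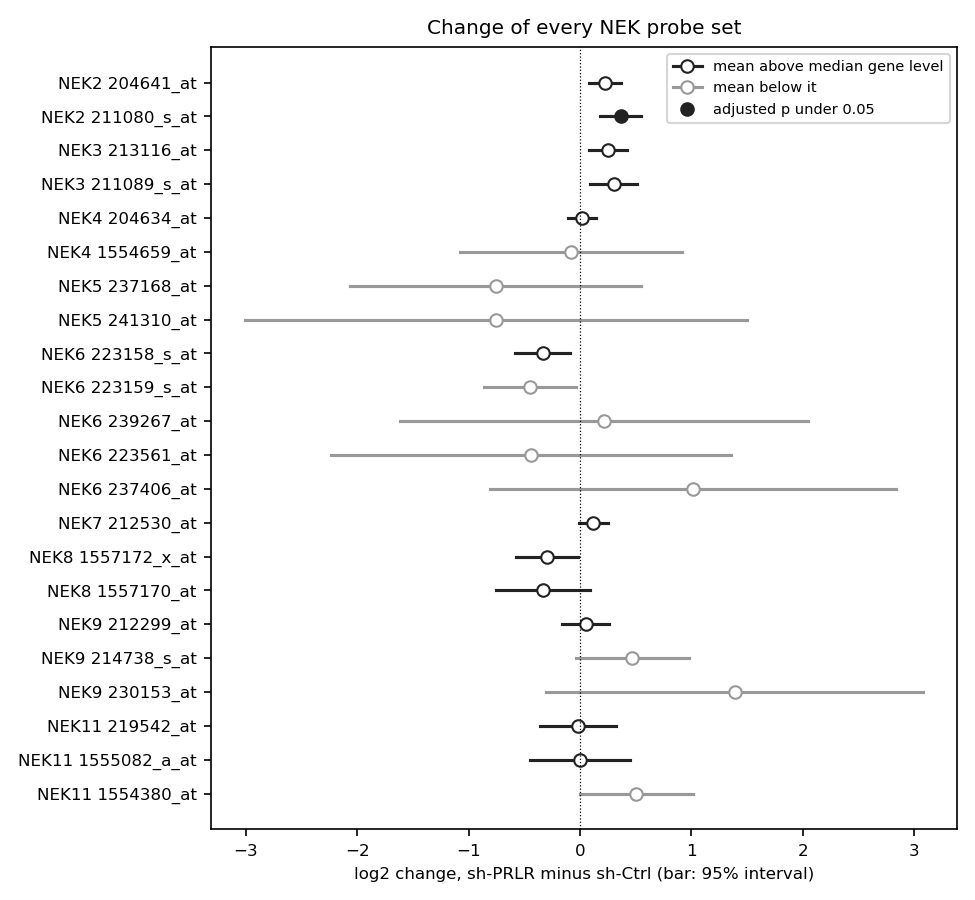
Log2 change (horizontal axis, sh-PRLR minus sh-Ctrl) of all 22 NEK probe sets with its 95% interval from limma with intensity-dependent variance. Black marks probe sets whose mean lies above the median gene level, grey those below, and the 1 filled point, NEK2 211080_s_at, had an adjusted p under 0.05. Intervals of the dim probe sets of NEK5, NEK6 and NEK9 are several times wider than those of the bright ones.

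By the brightest probe set of each gene, NEK2, the kinase that dissolves the link between centrosomes, had the smallest p of the family. This held for limma with intensity-dependent variance (unadjusted p = 0.00456), whereas with default settings NEK8 had the smallest (0.00587, against 0.0392 for NEK2). The brightest NEK2 probe set, 204641_at, read 11.48, 11.62 and 11.68 in sh-PRLR and 11.41, 11.32 and 11.36 in sh-Ctrl. The lowest sh-PRLR array lay above the highest sh-Ctrl array by a narrow margin. The difference was 0.23 (SE 0.06, a fold of 1.17) and did not pass over all genes (limma adjusted p = 0.0559, default adjusted p = 0.281).

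The second NEK2 probe set, 211080_s_at, read 10.13, 10.34 and 10.20 in sh-PRLR and 9.87, 9.78 and 9.92 in sh-Ctrl. All sh-PRLR arrays were higher, and this probe set rose by 0.37 (SE 0.08, a fold of 1.29, limma adjusted p = 0.0316 over all probe sets). With default settings it did not pass (limma adjusted p = 0.270), nor with the arrays centred on their medians (limma adjusted p = 0.208). The call held without sh-PRLR replicate 1 (limma adjusted p = 0.0308) and was lost when any other single array was left out (limma adjusted p = 0.0642 to 0.134). The name ending _s_at marks a probe set that can match more than 1 transcript, and the RefSeq gene table lists 4 NEK2 pseudogenes, whose part in the signal was not tested. Within arrays, the brightest minus the second probe set was 1.37 ± 0.10 in sh-PRLR and 1.51 ± 0.05 in sh-Ctrl, differing by -0.14 (two-sided exact permutation p = 0.2, adjusted p = 0.8 over the 8 genes with several probe sets). With the 40% of genes at the lowest mean left out, 2 of the 9 genes passed, NEK2 (limma adjusted p = 0.0284) and NEK3 (limma adjusted p = 0.0373), and without sh-PRLR replicate 1 NEK2 alone did (limma adjusted p = 0.0195). NEK2 also passed when the mean of a gene's probe sets was used (limma adjusted p = 0.0452).

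The genes most like NEK2 across the 6 arrays, by Euclidean distance between log2 values centred on each gene's mean, were TAP1, a transporter of antigen peptides (distance 0.04), BCL6, a transcriptional repressor (0.05), and BTG1, an antiproliferative gene (0.07). They were the nearest of 9886 genes above the median level, of which 434 lay within a distance of 0.2. TAP1 differed by 0.23, BCL6 by 0.23 and BTG1 by 0.22. Being chosen for nearness over these 6 values, they had to lie close to the 0.23 of NEK2, so this is no separate result. BTG1 passed limma over all genes (adjusted p = 0.0424, default adjusted p = 0.288). This likeness describes 6 values in 2 groups and carries no test.

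The stretches before the transcription start are shown for NEK2, the gene with a called probe set, and for NEK6 and NEK8, the genes that were lower without overlap. Sequences are from RefSeq (GRCh38.p14), 250 bases up to the start and written 5′ to 3′ along the gene, and windows were matched by symbol for 9 of the 10 genes, all but NEK7. Capitals mark CCAAT and GGGCGG on either strand. NEK2 lies on the minus strand at chr1:211675622-211675871, NEK6 on the plus strand at chr9:124257356-124257605 (the outermost of its 5 listed starts) and NEK8 on the plus strand at chr17:28728538-28728787.
NEK2: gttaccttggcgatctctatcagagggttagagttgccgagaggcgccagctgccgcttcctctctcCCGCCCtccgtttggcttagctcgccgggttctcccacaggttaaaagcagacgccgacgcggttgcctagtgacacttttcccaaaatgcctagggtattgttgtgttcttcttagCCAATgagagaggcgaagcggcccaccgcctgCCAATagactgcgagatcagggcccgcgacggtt
NEK6: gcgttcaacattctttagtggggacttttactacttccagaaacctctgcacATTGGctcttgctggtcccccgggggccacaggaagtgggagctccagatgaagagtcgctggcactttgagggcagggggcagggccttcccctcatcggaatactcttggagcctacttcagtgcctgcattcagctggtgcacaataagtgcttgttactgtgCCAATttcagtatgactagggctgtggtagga
NEK8: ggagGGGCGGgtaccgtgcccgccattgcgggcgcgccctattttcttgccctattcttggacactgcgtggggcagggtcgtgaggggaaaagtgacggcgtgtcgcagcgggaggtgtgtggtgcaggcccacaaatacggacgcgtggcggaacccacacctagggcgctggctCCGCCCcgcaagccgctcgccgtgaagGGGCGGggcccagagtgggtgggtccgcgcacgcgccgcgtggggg

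The NEK2 window holds 2 CCAAT boxes and 1 GC box, that of NEK6 2 CCAAT boxes and 0 GC boxes, and that of NEK8 0 CCAAT boxes and 3 GC boxes. The NEK6 count holds for the outermost start: its 4 other windows hold 0 CCAAT boxes, and 2 of them hold 3 and 5 GC boxes. NEK3, higher without overlap but not printed, has 2 starts, whose windows hold 0 CCAAT boxes and 1 and 3 GC boxes. CCAAT is bound by NF-Y and is common in genes expressed in G2 and mitosis, and GGGCGG is bound by SP1. Of 35116 windows in the table, 32% hold CCAAT and 42.6% hold GGGCGG, on either strand, against 2 and 5 of the 9 outermost NEK windows. The CHR element TTTGAA (13.3% of all windows) and the E2F sites TTTCCCGC, TTTCGCGC, TTTGCCGC and TTTGGCGC (2.79%) were in 0 of the 9 outermost NEK windows. The STAT5 motif TTCNNNGAA (6.57%), the site read by the factor downstream of the prolactin receptor, was in 1 of the 9, that of NEK9. A match of letters shows no binding.

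NEK9, the kinase upstream of NEK6 and NEK7, showed no difference beyond the spread by its brightest probe set. That probe set, 212299_at, read 11.35, 11.15 and 10.97 in sh-PRLR and 10.99, 11.18 and 11.15 in sh-Ctrl. The groups overlapped, with a difference of 0.05 (95% interval -0.16 to 0.26, limma adjusted p = 0.821, default adjusted p = 0.879), which turned to -0.05 without sh-PRLR replicate 1 and to -0.0073 without sh-Ctrl replicate 1.

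The 2 other NEK9 probe sets, both dimmer than the median gene, were higher on every sh-PRLR array than on any sh-Ctrl array. The probe set 214738_s_at read 6.84, 6.64 and 7.03 in sh-PRLR and 6.50, 6.23 and 6.36 in sh-Ctrl, and 230153_at read 3.12, 3.14 and 3.50 in sh-PRLR and 1.40, 2.05 and 2.14 in sh-Ctrl. Neither passed, with limma adjusted p-values of 0.339 for the first and 0.409 for the second, and default adjusted p-values of 0.302 and 0.171. With default limma settings 230153_at had the smallest unadjusted p of the 22 NEK probe sets (0.00234). No detection call was used, so 230153_at is not shown to lie above background. Within arrays, the brightest minus the mean of the 2 others was 6.11 ± 0.36 in sh-PRLR and 6.99 ± 0.08 in sh-Ctrl. These differed by -0.88 (two-sided exact permutation p = 0.1, the smallest possible here, adjusted p = 0.8 over the 8 genes with several probe sets). With the mean of all probe sets NEK9 was higher by 0.64 and did not pass (limma adjusted p = 0.129). Which transcripts of NEK9 each probe set reads was not examined here.

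NEK6, a kinase of the spindle and of cytokinesis, was lower by its 2 brightest probe sets. The first, 223158_s_at, read 8.78, 9.005 and 9.17 in sh-PRLR and 9.31, 9.32 and 9.34 in sh-Ctrl. The sh-PRLR arrays scattered (SD 0.20) while the sh-Ctrl arrays were nearly identical (SD 0.01), and the difference of -0.33 (SE 0.11) did not pass (limma adjusted p = 0.102, default adjusted p = 0.271). The second, 223159_s_at, read 7.04, 7.02 and 6.71 in sh-PRLR and 7.39, 7.21 and 7.51 in sh-Ctrl, a difference of -0.45 without overlap that did not pass either (limma adjusted p = 0.252 over all probe sets).

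The other 3 NEK6 probe sets had means between 1.62 and 4.89, with changes of 0.21, -0.44 and 1.01 and SEs of 0.81 to 0.83. The direction of NEK6 rests on the 2 _s_at probe sets, since without _x_at and _s_at probe sets the brightest left, 239267_at, was higher by 0.21. NEK7, the close paralog of NEK6 that also binds the inflammasome sensor NLRP3, was read by a single probe set, 212530_at. It gave 11.94, 11.87 and 12.01 in sh-PRLR and 11.88, 11.76 and 11.82 in sh-Ctrl, a difference of 0.12 (95% interval -0.0047 to 0.25, limma adjusted p = 0.265, default adjusted p = 0.507). The groups overlapped only by the lowest sh-PRLR array lying just under the highest sh-Ctrl array, and the difference between the changes of NEK6 and NEK7 was not tested.

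NEK3, the member tied to prolactin receptor signalling, was higher by both of its probe sets. The brightest, 213116_at, read 10.24, 10.40 and 10.32 in sh-PRLR and 9.99, 10.12 and 10.09 in sh-Ctrl, and 211089_s_at read 9.36, 9.47 and 9.45 in sh-PRLR and 9.13, 9.25 and 9.01 in sh-Ctrl. Every sh-PRLR array lay above every sh-Ctrl array on both. The differences were 0.25 (SE 0.07, limma adjusted p = 0.0693 over all genes, default adjusted p = 0.239) and 0.30 (SE 0.10, limma adjusted p = 0.115 over all probe sets), neither of which passed. Within arrays the gap between both probe sets was 0.89 ± 0.04 in sh-PRLR and 0.94 ± 0.12 in sh-Ctrl, which differed by -0.05 (two-sided exact permutation p = 0.7).

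NEK5, which has 0 other RefSeq genes starting between it and NEK3 on chromosome 13, was dim. Its probe set 237168_at read 3.48, 5.002 and 5.21 in sh-PRLR and 5.36, 5.52 and 5.09 in sh-Ctrl, and 241310_at read 4.78, 1.34 and 5.11 in sh-PRLR and 4.03, 4.16 and 5.29 in sh-Ctrl. In each, 1 sh-PRLR array stood far below the other two, replicate 1 in the first and replicate 2 in the second. The mean differences of -0.76 (95% interval -2.07 to 0.55, limma adjusted p = 0.548) and -0.75 (limma adjusted p = 0.783 over all probe sets) were thus not distinguishable from 0, and the first was -0.22 without sh-PRLR replicate 1, while the second turned to 0.45 without sh-PRLR replicate 2.

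NEK8, a kinase of the cilium mutated in nephronophthisis, was lower in mean by both probe sets. The brightest, 1557172_x_at, read 7.85, 7.80 and 7.87 in sh-PRLR and 8.14, 8.17 and 8.10 in sh-Ctrl, with little spread inside either group (SD 0.03 in both). The difference was -0.30 (limma adjusted p = 0.219 with an SE of 0.13, default adjusted p = 0.142 with an SE of 0.06). Neither setting called it. The second, 1557170_at, read 7.36, 7.02 and 7.14 in sh-PRLR and 7.77, 7.26 and 7.48 in sh-Ctrl, which overlapped, with a difference of -0.33 (limma adjusted p = 0.434 over all probe sets). The name ending _x_at marks a probe set that can bind other sequences.

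NEK4, linked to the ciliary protein RPGRIP1, showed no difference beyond the spread. Its brightest probe set, 204634_at, read 11.68, 11.61 and 11.54 in sh-PRLR and 11.61, 11.62 and 11.56 in sh-Ctrl, a difference of 0.02 (95% interval -0.11 to 0.14, limma adjusted p = 0.919) that turned to -0.018 with median centring. This interval was the narrowest of the family. Its dim probe set 1554659_at ranged from 4.98 to 5.41 in sh-PRLR and from 4.95 to 5.90 in sh-Ctrl.

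NEK11, a kinase of the G2/M checkpoint, was read by 3 probe sets, of which the dimmest differed most. The brightest, 219542_at, read 7.71, 7.78 and 8.10 in sh-PRLR and 7.81, 8.02 and 7.82 in sh-Ctrl, and 1555082_a_at read 7.28, 7.23 and 7.52 in sh-PRLR and 7.65, 7.00 and 7.38 in sh-Ctrl. Both overlapped, with differences of -0.02 (limma adjusted p = 0.967), which was 0.018 after quantile normalisation, and -0.00068. The third, 1554380_at, read 6.83, 7.16 and 6.81 in sh-PRLR and 6.59, 6.19 and 6.51 in sh-Ctrl, higher without overlap by 0.51 (SE 0.23) but not passing (limma adjusted p = 0.298 over all probe sets). Within arrays the brightest minus the mean of the others differed by -0.27 (exact two-sided permutation p = 0.4), which was -0.055 without sh-Ctrl replicate 2 and -0.42 without sh-Ctrl replicate 1.

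Partners of these kinases were taken from 6 lists drawn up from their known functions. Of 49 measured partners other than PRLR, 0 rose and 3 fell by limma with intensity-dependent variance, where 3.34% of all genes rose and 4.32% fell. The 3 make 6.12% of the partners, against 7.66% of all genes called and 14.6% of those above the median gene level. Most of the partners lay above that level. With default settings 0 partners passed, where 0.0202% of all genes did. The 3 were SAV1, TUBGCP3 and GSDMD, and none of them passed with the arrays centred on their medians.

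Among 10 genes of the centrosome linker and its regulators, 0 rose and 1 fell, with a median change of -0.15. SAV1, the scaffold through which the Hippo kinase MST2 acts on NEK2, read 10.35, 10.23 and 10.44 in sh-PRLR and 10.83, 10.65 and 10.62 in sh-Ctrl. It fell by 0.36 (SE 0.08, limma adjusted p = 0.0238, default adjusted p = 0.196). Of its 5 probe sets 3 fell, with limma adjusted p-values of 0.00917 to 0.0342 over all probe sets, whereas 238729_x_at was higher by 0.34 without passing and 240421_x_at differed by -0.0037. The SAV1 call was lost without sh-PRLR replicate 2, without sh-Ctrl replicate 1 and without sh-Ctrl replicate 2, each of which left 0 of the 10 genes passing. LRRC45 and CNTLN, named after their values were seen, were lower without overlap and did not pass (limma adjusted p = 0.265 and 0.148). The LRRC45 groups nearly met, at 6.2596 in sh-PRLR replicate 3 and 6.2608 in sh-Ctrl replicate 2. Counting SAV1, LRRC45 and CNTLN, 3 of the 10 genes had no overlap, against 25.8% of all genes and 38.9% of those above the median gene level. Below that level lay 2 of the 10, LRRC45 and CROCC. CEP250 and CROCC, 2 linker proteins that NEK2 phosphorylates, were given for that role after their values were seen and did not pass. CEP250, or C-NAP1, was at 8.23 ± 0.12 in sh-PRLR and 8.28 ± 0.07 in sh-Ctrl (limma adjusted p = 0.885), and CROCC, or rootletin, at 6.29 ± 0.42 in sh-PRLR and 6.70 ± 0.37 in sh-Ctrl (limma adjusted p = 0.522).

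Among 10 mitotic partners of NEK9, NEK6 and NEK7, 0 rose and 1 fell, with a median of -0.01. TUBGCP3, a subunit of the gamma-tubulin complex that nucleates microtubules, read 11.09, 11.08 and 11.21 in sh-PRLR and 11.49, 11.37 and 11.39 in sh-Ctrl. It fell by 0.29 (SE 0.06, limma adjusted p = 0.0178, default adjusted p = 0.182). Its probe set 215739_s_at was lower by a similar amount, -0.28, and 1554086_at was higher by 0.28, and neither passed, with limma adjusted p-values of 0.273 and 0.562. Leaving out sh-PRLR replicate 2 or any 1 of the sh-Ctrl replicates left 0 of the 10 passing. KIF11, the spindle motor phosphorylated by NEK6, was chosen for that role after its values were seen. It read 10.87, 10.89 and 10.90 in sh-PRLR and 11.05, 11.05 and 11.18 in sh-Ctrl, with a difference of -0.21 and no overlap, but it did not pass (limma adjusted p = 0.0667, default adjusted p = 0.264). PLK1, the kinase that starts this cascade, was chosen in the same way and was at 7.78 ± 0.29 in sh-PRLR and 7.43 ± 0.28 in sh-Ctrl, which overlapped (limma adjusted p = 0.397). DYNLL1 and BICD2, named after their values were seen, were lower without overlap and did not pass (limma adjusted p = 0.0682 and 0.0914). With KIF11 and TUBGCP3, 4 of the 10 genes had no overlap, against 25.8% of all genes and 38.9% of those above the median gene level. All 10 lay above that level.

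In the NLRP3 inflammasome, which NEK7 helps to assemble, 0 of 6 genes rose and 1 fell, with a median of -0.30. GSDMD, the pore-forming protein of pyroptosis, read 6.96, 7.33 and 7.43 in sh-PRLR and 7.74, 8.02 and 8.08 in sh-Ctrl. It fell by 0.71 (SE 0.18, limma adjusted p = 0.0411, default adjusted p = 0.157), and the call was lost when any 1 of the 6 arrays was left out. It has 1 probe set, whose limma adjusted p over all probe sets was 0.0516. NLRP3 itself was dim, at 3.88 ± 1.24 in sh-PRLR and 4.56 ± 1.85 in sh-Ctrl (limma adjusted p = 0.778), and so was PYCARD, the adaptor that joins it to CASP1, both named for their roles after their values were seen. In mean 4 of the 6 genes were lower and 2 higher. The median lies between the changes of PYCARD, -0.34 (SE 0.87), and IL18, -0.25. The groups of 3 genes did not overlap, against 25.8% of all genes and 38.9% of those above the median gene level. Below that level lay 2 of the 6 genes, NLRP3 and PYCARD. GSDMD and IL18 were lower and CASP1 was higher, by 0.59. IL18 and CASP1 did not pass (limma adjusted p = 0.128 and 0.127).

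No gene passed in the other 3 lists by limma with intensity-dependent variance, counting 0 of 9 in prolactin receptor signalling near NEK3, 0 of 8 measured of the inversin compartment and cilium and 0 of 7 measured of the checkpoint partners. In that fit 2, 3 and 1 of their genes had an unadjusted p under 0.05, against 20.3% of all genes. The counts were 3, 4 and 3 in the centrosome linker, the mitotic partners and the inflammasome. In the 3 lists without a call the medians were 0.12, -0.14 and 0.03, in the same order. In each of them the groups of 2 genes did not overlap, against 25.8% of all genes and 38.9% of those above the median gene level. Of their genes 4, 3 and 0 lay below that level. PXN and STAT5B were higher without overlap in the first list, ANKS3 higher and RPGRIP1L lower in the second, and ATM higher and RAD54L lower in the third. Paxillin, PXN, a focal adhesion protein that NEK3 acts on, was at 9.84 ± 0.13 in sh-PRLR and 9.43 ± 0.19 in sh-Ctrl (difference 0.40, limma adjusted p = 0.0541, default adjusted p = 0.252). The GTPase gene RAC1, activated by VAV proteins, was at 13.55 ± 0.05 in sh-PRLR and 13.62 ± 0.05 in sh-Ctrl (limma adjusted p = 0.425). VAV2, the exchange factor that NEK3 phosphorylates, was chosen for that role after its values were seen and was at 9.28 ± 0.08 in sh-PRLR and 9.38 ± 0.05 in sh-Ctrl (limma adjusted p = 0.595). STAT5B differed by 0.27 and did not pass (limma adjusted p = 0.133, default adjusted p = 0.233). INVS, the inversin that anchors NEK8, was at 9.33 ± 0.16 in sh-PRLR and 9.63 ± 0.24 in sh-Ctrl (limma adjusted p = 0.215), and the polycystin gene PKD1 at 9.32 ± 0.25 in sh-PRLR and 9.20 ± 0.08 in sh-Ctrl (limma adjusted p = 0.681). ATR, the replication stress kinase, was at 11.16 ± 0.05 in sh-PRLR and 11.13 ± 0.02 in sh-Ctrl (limma adjusted p = 0.859), and the mitochondrial channel VDAC1, a substrate of NEK1, at 13.38 ± 0.04 in sh-PRLR and 13.35 ± 0.04 in sh-Ctrl (limma adjusted p = 0.803).

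**Figure D3:**
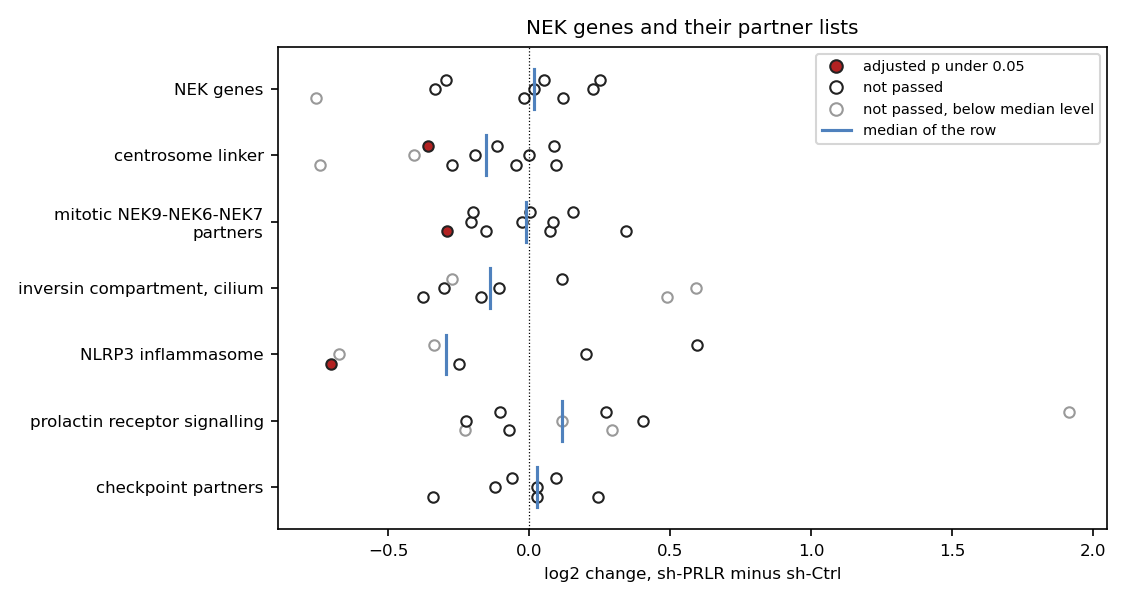
Log2 change (horizontal axis, sh-PRLR minus sh-Ctrl) of the 9 NEK genes and of the members of the 6 partner lists, 1 point a gene, with the median of each row as a blue line. Filled dark red points passed limma with intensity-dependent variance (SAV1, TUBGCP3 and GSDMD), open points did not, and grey points lie below the median gene level. Medians run from -0.30 for the inflammasome to 0.12 for prolactin receptor signalling.

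**Figure D4:**
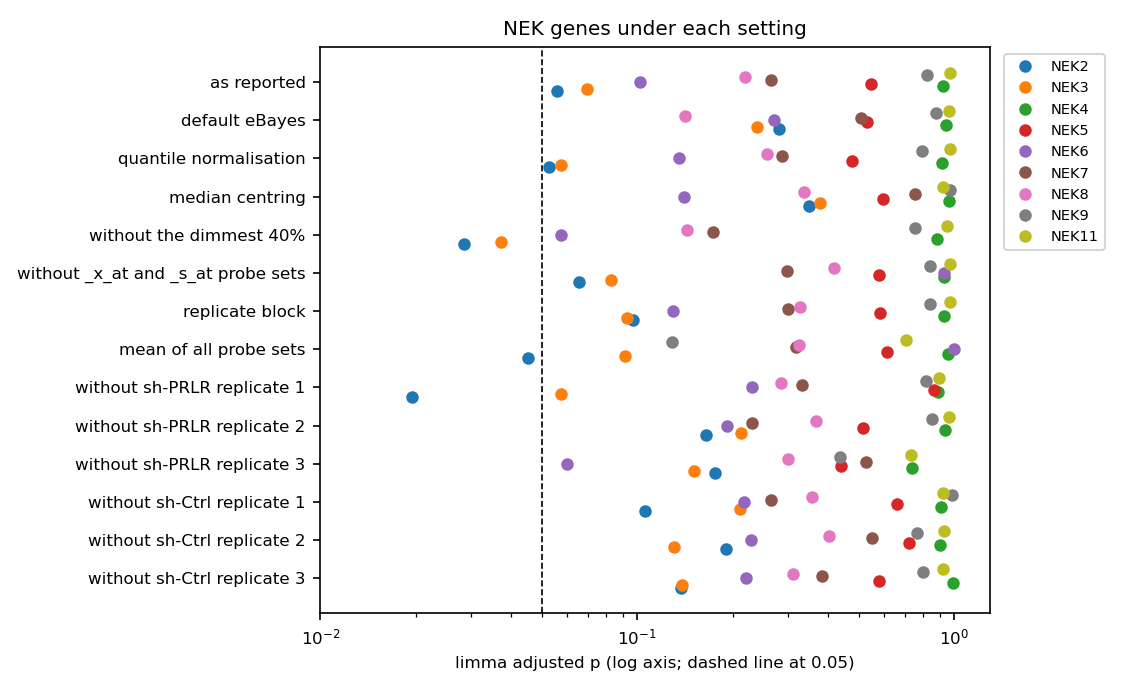
Limma adjusted p over all genes (horizontal log axis, dashed line at 0.05) of each NEK gene under the reported settings and each other setting except the 2-fold limit. NEK2 crosses the line without the dimmest 40%, with the mean of all probe sets and without sh-PRLR replicate 1, NEK3 without the dimmest 40%, and no other NEK gene under any of them.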

How the data were processed

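Each array came as a column of deposited log2 values, 1 per probe set. Per the submitters' processing notes, the tools named were affy, MAS5 and RMA, with no order given. The linear mean of each array, with 2% trimmed from each end, was 500 on all 6 arrays, as MAS5-type scaling gives, so the authors' log2 values were not normalised again. Of 54675 probe sets, 41091 had 1 gene symbol, giving 19775 genes; 62 control probe sets were left out of tests. No detection call was used.

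The test between groups was limma's (version 3.58.1, R 4.3.3; lmFit, then eBayes with trend and robust, two-sided, Benjamini-Hochberg over all genes or all single-symbol probe sets, threshold 0.05). Default eBayes and the other settings named in the closing section are alternatives. The members, lists and tests were chosen with earlier results of these data known, the intensity-dependent fit included. The named genes are all members, PRLR, up to 4 called members of each partner list (the 2 brightest where none passed), and the 3 genes most like the NEK gene with the smallest p in that fit. CEP250, CROCC, KIF11, PLK1, NLRP3, PYCARD and VAV2 were added for their roles after their values were seen. LRRC45, CNTLN, DYNLL1, BICD2, CASP1, IL18, ANKS3, RPGRIP1L, STAT5B, ATM and RAD54L were added for their lack of overlap, also after their values were seen. Of 55 listed partners, 50 were measured, PRLR among them. A single value was tested by exact permutation of the group labels. The fits were tested on simulated data, with changes set in genes above the median gene level. Of changes of 0.5 the intensity-dependent fit recovered 50.2% and default settings 4.8%. Of changes of 1 they recovered 86.6% and 66.2%, and 3.51% and 7.71% of the genes called were false. A change of 0.5 or less can thus go uncalled, above all with default settings. The number of arrays limits precision. Figures used Python 3.11.15 and matplotlib 3.10.9.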

Additional observations from a re-analysis of the deposited data

How the results depend on the processing

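The count of NEK genes called was 0 as reported, 2 without the dimmest 40% of genes, 1 with each gene's probe sets averaged (the mean of all probe sets), and 0 to 1 with each array left out; the other settings gave 0. The count of NEK probe sets called, 1 as reported, was 0 with default eBayes, median centring, the replicate block, the 2-fold limit and without _x_at and _s_at probe sets, 2 without the dimmest 40%, and 0 to 2 with each array left out. The NEK2 probe set 211080_s_at had an adjusted p of 0.0695 in limma with the replicate block. Same-numbered arrays correlated by -0.06, 0.06 and -0.10 in their deviations from the group means. With 3 arrays a group, these correlations cannot decide whether the numbers pair the arrays. The block changed no other NEK call and left 1090 genes called in place of 1514. The cause of these changes was not tested, beyond the smaller number of genes or arrays in some fits.

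The median NEK change moved to 0.12 with the mean of all probe sets and lay between -0.020 and 0.050 with each array left out. The 1 call in the centrosome linker, the mitotic axis and the inflammasome was 0 with default eBayes, median centring, the mean of all probe sets and the 2-fold limit, and for the centrosome linker also without _x_at and _s_at probe sets. The mitotic axis had 2 with quantile normalisation and 3 without the dimmest 40%, and prolactin receptor signalling had 1 in both. The checkpoint partners had 1 without the dimmest 40%. With each array left out the counts were 0 to 2 for the centrosome linker, 0 to 1 for the mitotic axis and 0 for the inflammasome. The PRLR mean stayed lower throughout, from -0.96 to -0.73 with each array left out.

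Some changes turned sign, not all of them near 0, and others moved in size without turning. NEK11 was 0.018 with quantile normalisation (1555082_a_at 0.017) and 0.16 with the mean of all probe sets. NEK4 was -0.018 with median centring and -0.032 with the mean of all probe sets. NEK6 was 0.21 without _x_at and _s_at probe sets and 0.00060 with the mean of all probe sets. With each array left out, NEK4 ran from -0.020 to 0.050 (1554659_at -0.27 to 0.21), NEK9 from -0.046 to 0.15, NEK11 from -0.14 to 0.057 (1555082_a_at -0.17 to 0.15), NEK5 from -1.08 to -0.22 (241310_at -1.44 to 0.45), NEK6 223561_at from -0.79 to 0.11 and NEK6 239267_at from -0.76 to 0.82. The difference between probe sets of a gene was 0.041 for NEK5 with quantile normalisation. With each array left out it ran from -0.086 to 0.020 for NEK3, -0.18 to 0.29 for NEK4, -1.43 to 1.05 for NEK5, -0.69 to -0.13 for NEK6, -0.094 to 0.17 for NEK8 and -0.42 to -0.055 for NEK11. Over all genes, limma called 4 with default eBayes, 504 with median centring, 609 with the mean of all probe sets, 97 past 2-fold, and 665 to 1322 with each array left out; over all probe sets it called 0, 583, 149 past 2-fold, 1054 without _x_at and _s_at probe sets, and 777 to 1606.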
